A study of Mus musculus with 3 samples.

Results

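Fibroblast growth factor (FGF) receptors and ligands were followed through osteogenic culture of mouse bone marrow mesenchymal stem cells (MSCs). The set held 10 genes, the receptors Fgfr1, Fgfr2 and Fgfr3 and the ligands Fgf1, Fgf2, Fgf7, Fgf10, Fgf18, Fgf21 and Fgf23, chosen by name from 20279 genes that had a named probe. They were read by 17 probes on 44 spots of each array, and all 10 had at least 1 probe. The RNA came from primary cultures, per the labels of 8-week-old male mice whose strain is not given in the sources used here, and there were 3 groups with 1 Agilent one-colour array each. The day 0 group was the uninduced MSCs. The day 3 and day 21 groups were the same kind of culture after 3 or 21 days with 50 µg/mL ascorbic acid, needed for collagen maturation, and 10 mM beta-glycerophosphate, a phosphate source for mineral. The whole-culture RNA is that of every cell present, so fewer cells of a type and less RNA per cell cannot be told apart. With 1 array a group there was no replicate check, no test between days and no p-value. Below, the early step is day 3 set against day 0, the late step is day 21 set against day 3, and the whole course is day 21 set against day 0; precision is limited by the number of arrays.

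FGFs are secreted proteins that bind receptor tyrosine kinases on the cell surface together with heparan sulfate chains, and the receptors signal through the Ras-MAP kinase cascade. Fgf1, Fgf2, Fgf7, Fgf10 and Fgf18 act locally, whereas Fgf21 and Fgf23 are hormones that need the co-receptors beta-Klotho (Klb) and Klotho (Kl). In bone, Fgfr1 and Fgfr2 act in osteoblast precursors, Fgfr3 restrains cartilage growth, Fgf18 acts on growth plate cartilage and bone formation, and Fgf23, made by osteocytes, lowers blood phosphate.

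The 3 arrays were alike in brightness, with a 75th percentile of processed signal between 172 and 191, and between 63.8% and 66.2% of genes were well above background, the scanner software's own mark of detection. The day 0 and day 21 arrays lay on slide 1 and the day 3 array on slide 2, and in the early and late steps the effects of day and slide cannot be told apart. Signals below are the processed spot intensity of each array in arbitrary units. Different probes are set together only in choosing a gene's brightest probe and in the summed marker levels, which a bright probe can dominate. Differences are log2 values after each array's 75th percentile had been subtracted, later day minus earlier day, with the standard error (SE) of the scanner's error model. For a probe on 10 spots the SE uses the mean error of single spots and is not reduced for their number. That error and the technical SD of a log2 difference, 0.17 from probes printed 10 times on each array, describe measurement within an array and hold no spread between cultures or between animals. Of 9 osteoblast markers with a named probe, the day 0 array detected 4, the day 3 array 6 and the day 21 array 8. Their summed level, in multiples of each array's 75th percentile, was 362, 389 and 293, most of it from Col1a1. Over the whole course Col1a1 was at -0.47 and Runx2 at -0.37, whereas Spp1 (2.74) and Bglap2 (3.58) were higher. Ibsp (at least 63.7-fold), Alpl (at least 29.1-fold), Phex and Dmp1 were higher by a bound. Markers of marrow stroma were detected in 10 of 10 cases on each array, and those of macrophages in 4 of 7, without Ptprc, Adgre1 and Mrc1. Sp7, a defining transcription factor of the lineage, was not above background on any array. Of 10 adipocyte markers the day 0, 3 and 21 arrays detected 5, 9 and 10, and their summed level was 8.27, 39.8 and 1216.

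Upstream sequences are shown for the ligand no longer above background after induction (Fgf21) and for a ligand that became detectable (Fgf10). They are also shown for a ligand and a receptor that ended higher (Fgf2, Fgfr2). These 4 sequences are examples picked by those values, and other genes of the set also ended higher. Each is the 250 bases before the annotated start, 5′ to 3′ on the gene's strand, from RefSeq with build GRCm38.p6. They lie at chr7:45615491-45615740 (minus strand) for Fgf21, chr13:118714449-118714698 (plus) for Fgf10, chr3:37348403-37348652 (plus) for Fgf2 and chr7:130266809-130267058 (minus) for Fgfr2. Capitals mark matches, on either strand, to 6 motifs. These were the RUNX core, spelled TGTGGT, the AP-1 site, spelled TGANTCA, and the composite site of C/EBP and ATF factors, spelled TGATGNAA. The others were the TATA box, spelled TATAAA, the GC box, spelled GGGCGG, and the E-box, spelled CACGTG.
Fgf21: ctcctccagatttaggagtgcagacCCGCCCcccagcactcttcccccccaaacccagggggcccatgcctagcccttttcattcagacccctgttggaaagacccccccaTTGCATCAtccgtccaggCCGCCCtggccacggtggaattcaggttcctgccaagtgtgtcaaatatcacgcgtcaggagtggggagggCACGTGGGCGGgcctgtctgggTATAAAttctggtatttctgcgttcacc
Fgf10: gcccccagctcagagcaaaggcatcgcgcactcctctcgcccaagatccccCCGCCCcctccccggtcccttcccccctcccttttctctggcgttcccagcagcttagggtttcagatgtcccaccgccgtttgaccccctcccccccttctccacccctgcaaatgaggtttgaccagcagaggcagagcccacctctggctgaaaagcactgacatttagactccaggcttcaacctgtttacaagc
Fgf2: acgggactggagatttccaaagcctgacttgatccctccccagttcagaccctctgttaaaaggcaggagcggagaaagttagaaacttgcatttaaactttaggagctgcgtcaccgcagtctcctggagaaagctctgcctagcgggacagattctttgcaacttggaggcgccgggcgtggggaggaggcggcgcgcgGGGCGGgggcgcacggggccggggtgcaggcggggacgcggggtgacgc
Fgfr2: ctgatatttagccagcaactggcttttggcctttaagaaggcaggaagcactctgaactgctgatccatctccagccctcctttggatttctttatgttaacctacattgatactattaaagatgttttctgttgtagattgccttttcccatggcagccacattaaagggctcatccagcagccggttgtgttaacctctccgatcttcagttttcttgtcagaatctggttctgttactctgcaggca

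A promoter was found for 8 of the 10 genes (Fgf1 and Fgfr1 had no entry). Across those 8, the C/EBP-ATF motif, the TATA box and the E-box were found only upstream of Fgf21. The C/EBP-ATF match, TTGCATCA on the strand shown, lies 139 to 132 bases before the start, and 3.45% of 32851 promoters of this length hold that motif. The TATA box lies 28 to 23 bases before the start (12.4% of promoters hold one). The E-box (6.02% of promoters) overlaps a GC box (32.7%) by 1 base. The RUNX and AP-1 motifs matched none of these 8 genes and are held by 14.0% and 6.75% of promoters. The window shown for Fgfr2 held 0 matches, a GC content of 44.0% and 2 CpG dinucleotides, against 62.4% and 20 for Fgf2, 61.2% and 8 for Fgf10 and 59.6% and 9 for Fgf21; the median over all promoters was 52.4%. A match describes the letters of the window only.

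All 3 receptors had higher signals at day 21 than at day 0, and Fgfr3 had its lowest signal at day 3 on its brighter probe. Fgfr1, the main receptor of mesenchymal cells, gave 5054.5 at day 0, 8006 at day 3 and 12314 at day 21 on its brightest probe. That was a difference of 0.64 ± 0.20 (SE) over the early step, 1.14 ± 0.20 over the whole course and 0.49 ± 0.20 over the late step. The signal was ordered by day. The 2 other Fgfr1 probes gave 327, 591 and 944, and 95.6, 175 and 186. All 3 probes were 1.56-fold to 1.81-fold higher at day 3 than at day 0, and 1.76-fold to 2.61-fold higher at day 21. They disagreed on the last step, where one stood at -0.04 ± 0.21 and the others were higher by 0.49 and 0.55. The day 21 value passed 2-fold on 2 of the 3 probes, and not under scaling to the spike-in controls (0.86).

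Fgfr2, the receptor whose splice forms respond to Fgf7 and Fgf10 or to Fgf2 and Fgf18, was read by a probe printed 10 times and by a second probe. Over its 10 spots the first gave 22.5 ± 4.42 at day 0, 37.9 ± 4.35 at day 3 and, over 9 usable spots, 113 ± 5.07 at day 21 (mean and SD over spots of 1 array). The spots ran from 17.1 to 30.4 at day 0, from 31.5 to 43.6 at day 3 and from 105 to 122 at day 21, with no overlap between days. The second probe gave 84.8, 154 and 307. Over the early step the probes gave 0.75 ± 0.28 and 0.84 ± 0.21, below 2-fold. Over the whole course they gave 2.21 ± 0.26 (4.62-fold) and 1.71 ± 0.21 (3.27-fold), both past 2-fold. Over the late step they gave 1.46 ± 0.23 and 0.87 ± 0.21, on either side of 2-fold. Both probes carry the same transcript accession, and the values do not say which splice form was present.

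Fgfr3 followed another course. Its brighter probe gave 114 at day 0, 63.0 at day 3 and 328 at day 21. It was at -0.87 ± 0.21 over the early step, below 2-fold. That became -1.46, past 2-fold, under spike-in scaling and -0.49 with normexp background correction. The late step was at 2.25 ± 0.21 (4.76-fold, or 1.61 with normexp correction). The whole course was at 1.38 ± 0.21 (2.60-fold, or 1.12 with normexp correction). The dimmer probe, with signals of 13.8, 10.3 and 26.2, passed background at day 21 only, which gives a rise of at least 2.27-fold over the late step and at least 1.71-fold over the whole course. Both probes had their highest signal at day 21. The lower value at day 3 than at day 0 rests on the brighter probe, a single spot an array. The dimmer probe was not above background on either of those days and cannot order them. Markers of chondrocytes, cells known to express Fgfr3, were above background in 6 of 10 cases at day 0 and in 10 at days 3 and 21, with summed levels of 72.9, 87.8 and 366. Comp, a cartilage matrix protein, alone held 256 of that sum at day 21. Over the whole course 3 of 6 measured markers were at least 2-fold higher, namely Comp, Prg4 (6.16) and Sox9 (1.24). Col10a1 (-1.27) was lower, and Acan (-0.97) and Col2a1 (-0.32) were below their day 0 values within 2-fold. A further 3 markers were higher by a bound. Of all genes measured, 12.8% were higher and 16.8% lower. The markers' part in the Fgfr3 result was not tested.

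**Figure D1:**
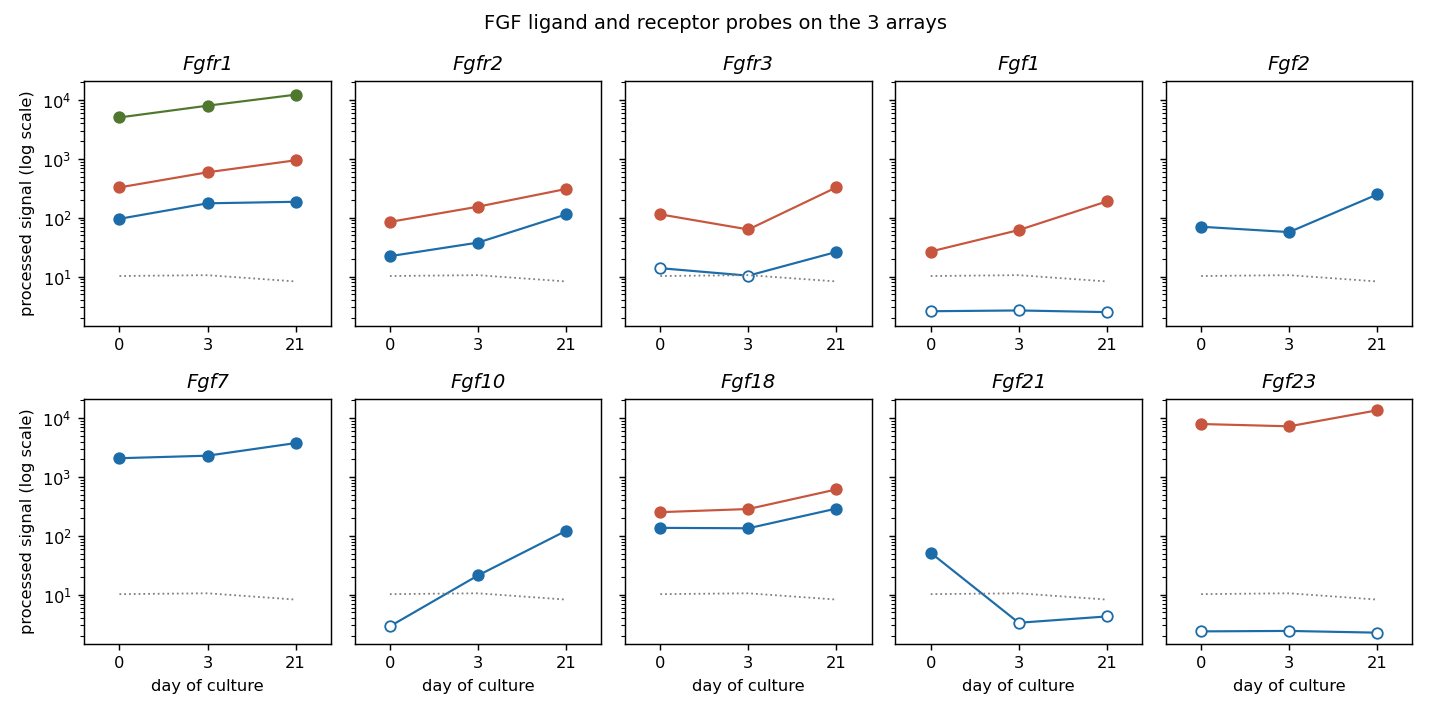
Processed signal (log axis) of every probe of the 10 genes on the day 0, 3 and 21 arrays. Each line is a probe, filled circles are well above background, open circles are not, and the dotted line is the lowest signal of any probe above background on that array; Fgf10 crosses that line upward after day 0 and Fgf21 downward.

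Of the locally acting ligands, Fgf1, Fgf2 and Fgf10 differed most between days. Fgf1, a ligand of all FGF receptors that adipose tissue also makes, gave 26.6 at day 0, 61.6 at day 3 and 189 at day 21 on 1 probe. That probe was higher by 1.19 ± 0.26 at day 3 than at day 0 (2.28-fold) and by 2.68 ± 0.25 at day 21 than at day 0 (6.42-fold). The day 21 array was also above day 3, by 1.49 ± 0.22. The second Fgf1 probe gave 2.57, 2.65 and 2.48 and was not above background on any array, so the Fgf1 values are those of the first probe alone. The day 3 difference fell below 2-fold under spike-in scaling (0.60) and with normexp background correction (0.43), which also took the late step to 0.90 and the whole course to 1.32.

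Fgf2, a mitogen of bone marrow stromal cells, was read on 10 spots. They gave 70.5 ± 6.98 at day 0, 56.9 ± 3.01 at day 3 and 249 ± 15.9 at day 21 (mean and SD over 10 spots of 1 array). The spots of day 3 (51.9 to 61.8) overlapped those of day 0 (56.8 to 79.8), and those of day 21 (223 to 273) lay above both. The early step was at -0.32 ± 0.22, within 2 SE of no difference, with an SE that is not reduced for the 10 spots. Day 21 was higher than day 0 by 1.68 ± 0.21 (3.19-fold) and higher than day 3 by 2.00 ± 0.21 (3.99-fold), or by 1.31 with normexp correction.

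Fgf10, which in other tissues is a mesenchymal signal to epithelium and is also made by fat cell precursors, was not above background at day 0 on any of its 10 spots, which ran from 2.1 to 5.8. All 10 spots were above background at day 3, at 21.5 ± 3.9, and all 9 usable spots at day 21, at 122 ± 5.9 (mean and SD over spots of 1 array). The spots of the 3 days did not overlap. Against the lowest detectable signal of the day 0 array, Fgf10 was at least 2.05-fold higher at day 3 and at least 10.8-fold higher at day 21. Between the 2 arrays where it was detected, day 21 was higher than day 3 by 2.39 ± 0.28 (5.25-fold), or by 0.99 with normexp correction.

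**Figure D2:**
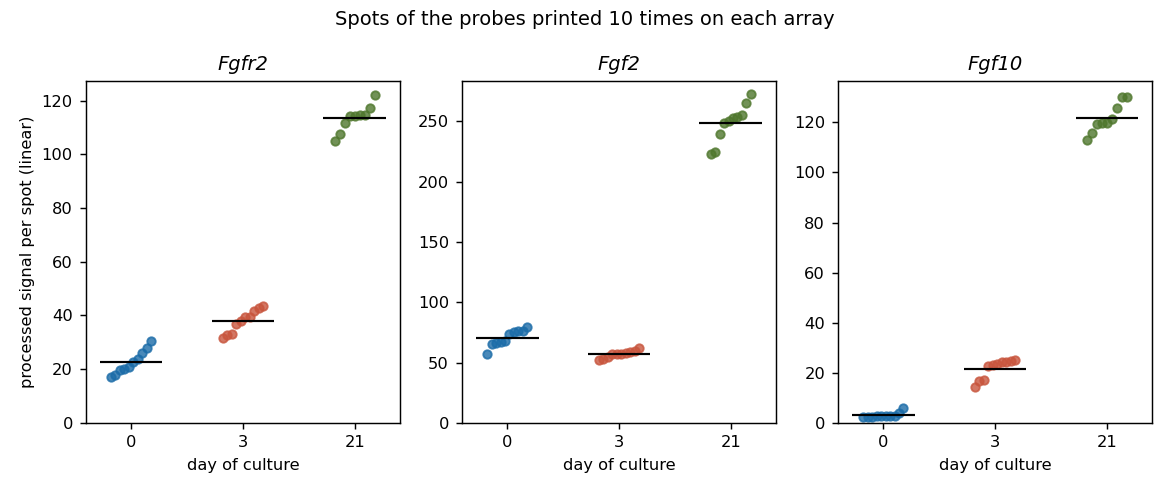
Processed signal of single spots (linear axis from 0) for the Fgfr2, Fgf2 and Fgf10 probes printed 10 times on each array, at day 0, 3 and 21, with the mean as a bar. The spots are technical repeats within 1 array, and only the Fgf2 spots of day 0 and day 3 overlap.

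Fgf7 and Fgf18 differed less. Fgf7, keratinocyte growth factor, made by stromal cells and close in sequence to Fgf10, gave 2084 at day 0, 2301 at day 3 and 3769 at day 21. Its differences were 0.12 ± 0.20 over the early step, 0.71 ± 0.20 over the whole course and 0.58 ± 0.20 over the late step, and none reached 2-fold. Fgf18 gave 252, 285 and 615 on one probe and 136, 134 and 290 on the other. The early step was at 0.16 ± 0.20 and -0.04 ± 0.21, and the whole course at 1.14 ± 0.20 and 0.94 ± 0.21, so 1 of the 2 probes passed 2-fold. The late step was at 0.98 on both. For both Fgf7 and Fgf18, day 0 and day 3 could not be told apart within 2 SE, and under spike-in scaling their day 3 differences turned to -0.47 and -0.43. The day 21 value of Fgf18 was 0.86 under that scaling.

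The hormone Fgf21, known from liver and fat and from the amino acid and mitochondrial stress response, was the only one of the 10 genes that was lower by at least 2-fold in any comparison under the 75th percentile scaling. Its single spot gave 51.4 at day 0, and 3.33 at day 3 and 4.26 at day 21, neither above background. It was therefore at least 4.94-fold lower at day 3 than at day 0, and at least 6.91-fold lower at day 21 than at day 0, and no fold is given between day 21 and day 3. The value rests on 1 spot an array. Its co-receptor Klb ran the other way: the probe gave 8.15 at day 0, not above background, 16.8 at day 3 and 122 at day 21. Klb was at least 10.8-fold higher at day 21 than at day 0 and 6.68-fold higher than at day 3. The day 3 bound, 1.62-fold, did not reach 2-fold. Adipocyte markers, of which the summed levels are given above, were also highest at day 21, and their part in the Klb, Fgf1 and Fgf10 results was not tested.

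The probes of Fgf23 disagreed, so the values below are those of a probe and no level of the gene is stated. One probe gave 7949 at day 0, 7265 at day 3 and 13598 at day 21, all above background. The other gave 2.38, 2.42 and 2.26 and was not above background on any array. The bright probe was at -0.15 ± 0.20 over the early step, 0.63 ± 0.20 over the whole course and 0.78 ± 0.20 over the late step. None of these reached 2-fold, and quantile normalization moved both day 21 values past it (1.07 and 1.16). Both probes carry the same transcript accession, and which of them reads Fgf23 RNA was not tested. Among 4052 genes of the arrays with at least 2 probes, 1 of them above background on all 3 arrays, 804 (19.8%) had another probe above background on none, as had Fgf23 and Fgf1. Klotho, the co-receptor of Fgf23, was not above background on any array (2.37, 2.42 and 2.28).

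Of the 8 members measured on both arrays, 6 were at least 2-fold higher at day 21 than at day 0. Fgf7 and the bright Fgf23 probe, counted here as Fgf23, stayed within 2-fold, and Fgf21 was lower by its bound. Over the early step, 1 of 8 measured members was at least 2-fold higher (Fgf1) and 0 were lower, against 7.73% and 7.85% of 12455 genes measured. With bounds included, 2 of 10 were higher and 1 lower, against 9.32% and 8.54% of 13600 genes. Over the whole course the 6 of 8 higher were Fgf1, Fgfr2, Fgf2, Fgfr3, Fgfr1 and Fgf18, and 0 were lower, against 12.8% and 16.8% of 12387 genes. With bounds, 7 of 10 were higher and 1 lower, against 15.4% and 17.7% of 13970 genes. Over the late step, 4 of 9 were higher (Fgf10, Fgfr3, Fgf2 and Fgf1) and 0 lower, against 7.75% and 7.11% of 12739 genes. With bounds the counts were again 4 and 0, now of 9 members, against 8.99% and 8.24% of 13803 genes. The median difference of measured members was 0.14 over the early step, where that of all genes was -0.08. It was 1.26 over the whole course, where all genes had -0.21, and 0.98 over the late step, where all genes had -0.10. Both comparisons with day 0 share the day 0 array, both with day 21 share the day 21 array, and the genes were chosen with earlier results of these arrays known. Without Fgf1 and Fgf23, whose probes disagreed, 0 of 6 were higher over the early step, 5 of 6 over the whole course and 3 of 7 over the late step, 0 were lower, and the medians were again 0.14, 1.26 and 0.98. Under spike-in scaling the early step moved to 0.05 for Fgfr1, 0.25 for Fgfr2, -0.91 for Fgf2 and -0.74 for the bright Fgf23 probe. The 6 genes higher at day 21 than at day 0 became 4 under spike-in scaling, without Fgfr1 and Fgf18.

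**Figure D3:**
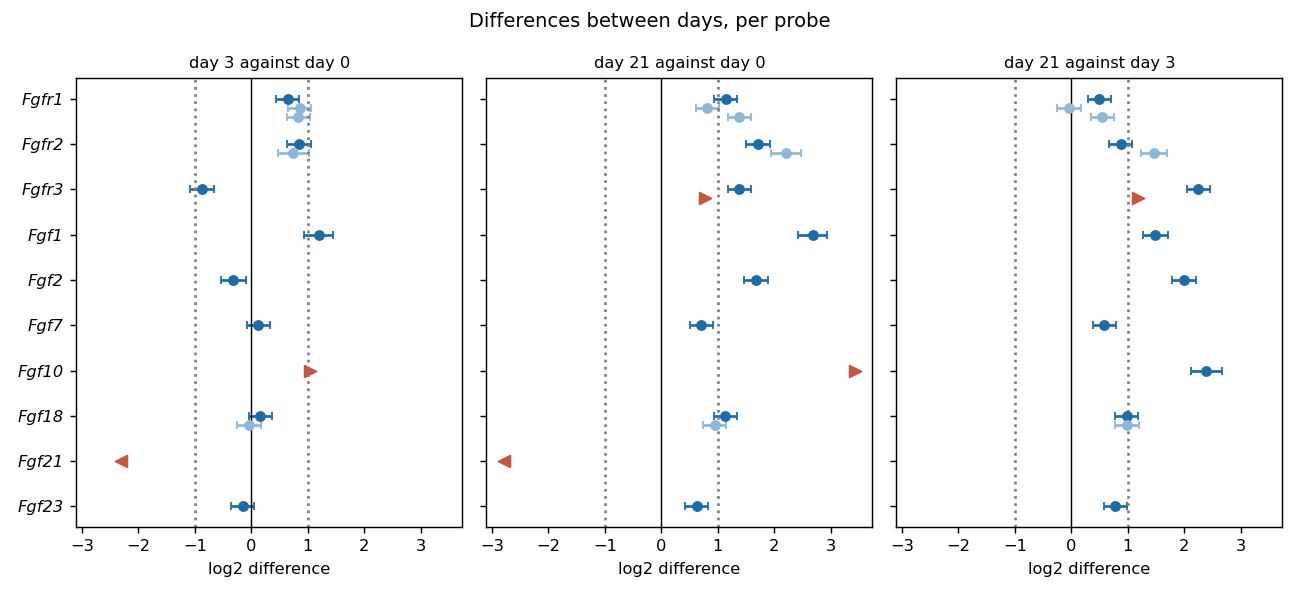
Log2 differences of the 10 genes, later minus earlier day, for each probe, with the standard error of the scanner's error model. Dark points are the probe that stands for the gene, light points its other probes, triangles are bounds where 1 array was not above background, and dotted lines mark 2-fold; in the middle panel every point lies right of 0 and only the Fgf21 bound lies left.

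**Figure D4:**
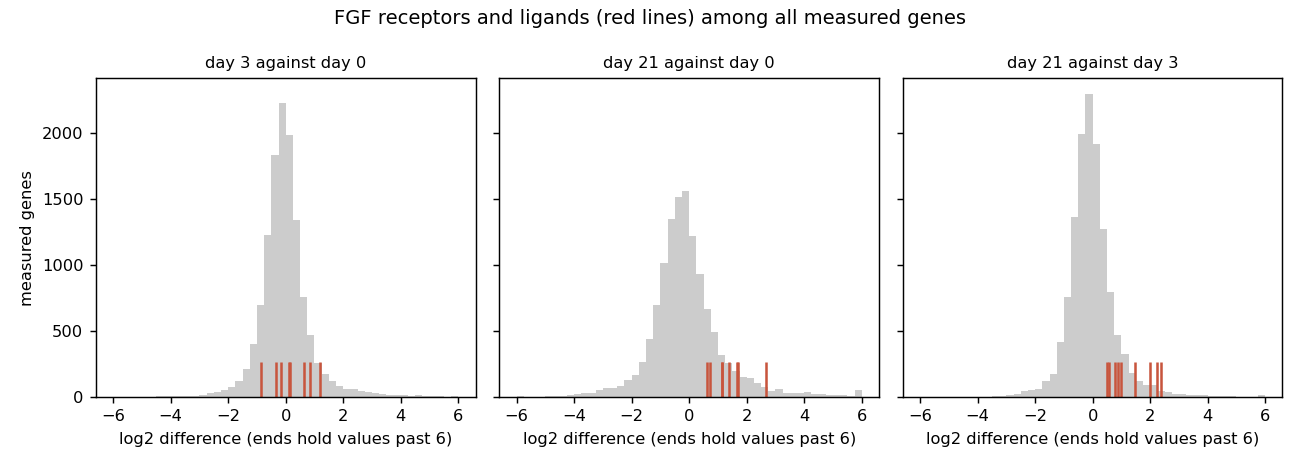
Histograms of the log2 difference of all measured genes in the 3 comparisons, with a red line for each measured FGF receptor or ligand. The lines straddle 0 over the early step, and all 8 over the whole course and all 9 over the late step lie above 0.

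The genes whose course was most like that of a member were taken as the 2 nearest in the differences of day 3 and day 21 from day 0, among 12213 other genes measured on all 3 arrays. With 3 arrays such a likeness is loose: 163 genes lay within the technical SD of Fgf7, 105 of Fgf23, 87 of Fgfr1, 58 of Fgf18 and 49 of Fgfr2. Fewer lay so near the others, namely 7 of Fgf1, 6 of Fgf2 and 3 of Fgfr3. The nearest to Fgfr3 were Moxd1 (distance 0.02) and Heyl (0.05), and the nearest to Fgf2 were Pcdhb16 (0.02) and Hpx (0.02). Fgfr2 was nearest to Cyhr1 (0.05) and Ebf1 (0.05), Fgfr1 to Sema4b (0.01) and Celf5 (0.01), Fgf18 to Vamp2 (0.03) and Foxd1 (0.03), Fgf7 to Zfp446 (0.02) and Cdkn2aip (0.02), and the bright Fgf23 probe to Phc3 (0.01) and Rtl6 (0.01).

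The other FGF ligands were mostly undetected. Of 15, 9 were not above background on any array (Fgf3, Fgf4, Fgf6, Fgf12, Fgf15, Fgf16, Fgf17, Fgf20 and Fgf22). Beside this, 6309 of all 20279 genes were above background on neither the day 0 nor the day 21 array. Fgf9, a mesenchymal ligand of bone and cartilage, gave 224 at day 0, 85.1 at day 3 and 108 at day 21, and was more than 2-fold lower at both later days (-1.42 over the early step and -1.20 over the whole course). Fgf5 gave 21.8, 18.3 and 10.9, a difference of -1.14 over the whole course. Fgf11, Fgf13 and Fgf14 encode FGF-like proteins that stay in the cell. Fgf13 was at -1.02 over the early step and -0.67 over the whole course. Fgf14 was at -1.13 over the late step, with signals of 24.1, 31.8 and 15.8. Only 1 of the 3 Fgf14 probes was measured. Fgf11, above background at days 0 and 3 only, was at least 2.31-fold lower at day 21 than at day 0. Fgf8 was above background at days 0 and 21 only, at 18.5 and 13.8, on the brightest of its 3 probes. No other ligand was at least 2-fold higher in any comparison.

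Of the other receptors, Fgfrl1, which binds FGFs but lacks the kinase part, gave 5633 at day 0, 7958 at day 3 and 18870 at day 21. It was at 0.48 over the early step, below 2-fold, and was higher at day 21, by 1.60 than at day 0 and by 1.12 than at day 3. Fgfr4 gave 56.8, 79.4 and 44.6 and stayed within 2-fold, the lowest value being -0.96 over the late step. Only 1 of the 2 Fgfr4 probes was measured. The secreted FGF carrier Fgfbp3 was lower at both later days, at -1.35 over the early step and -1.17 over the whole course, and so was Flrt2, a membrane protein that can bind FGF receptors, at -1.47 and -1.48. A second Flrt2 probe gave -1.35 and -0.98. Flrt1 was at -1.06 over the early step and 1.14 over the late step on its brightest probe. Another Flrt1 probe gave -1.02 and 0.35, so the late step passed 2-fold on 1 probe only.

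Over the whole list of 64 other FGF family and pathway genes (63 with a named probe), 2 of 46 measured were at least 2-fold higher and 13 lower over the early step, 5 of 46 higher and 16 lower over the whole course, and 3 of 45 higher and 3 lower over the late step. Of all genes measured, 7.73% were higher and 7.85% lower over the early step, 12.8% and 16.8% over the whole course, and 7.75% and 7.11% over the late step. The list medians were -0.52, -0.48 and 0.04, beside -0.08, -0.21 and -0.10 for all genes. The heparan sulfate proteoglycans and their enzymes, which present FGFs to the receptors, differed in both directions. Of 17, 2 were higher and 5 lower over the early step, and 4 higher and 5 lower over the whole course. Gpc3, a glypican of growing mesenchyme, was higher by 1.68 at day 3 and by 2.28 at day 21, and the syndecan Sdc4 was 3.35-fold and 2.82-fold higher. Gpc1 was at -1.41 and -1.57, Sdc3 at -1.27 and -2.12, the 6-O-sulfotransferase Hs6st2 at -1.17 and -1.78, and the 2-O-sulfotransferase Hs2st1 at -0.26 and -1.64. In the adaptors and the Ras-MAP kinase cascade, 0 were higher in any comparison. Of 16, 2 were lower over the early step, and 6 of 17 over the whole course, among them Hras (-1.69) and Nras (-1.59). Hras was measured on 1 of its 2 probes, and Nras on all 3 (-1.59 to -1.34). The adaptor Gab1 was at 0.94 over the late step. Of the genes that process or control Fgf23, Phex was at least 11.5-fold higher at day 21 than at day 0 and Dmp1 at least 3.20-fold. Both were above background at day 21 only and were also among the osteoblast markers counted above. Galnt3, whose enzyme shields Fgf23 from cleavage, was at least 5.60-fold lower at day 21 than at day 0, and Fam20c was at -0.07.

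Genes that FGF signalling is known to induce, most of which also respond to other growth factors, were mostly lower at day 21. Of 14 measured, 3 were at least 2-fold higher and 4 lower over the early step, 1 higher and 8 lower over the whole course, and 0 higher and 6 lower over the late step, with 2 more lower by a bound over the whole course. The medians were -0.14, -1.44 and -0.75, beside -0.08, -0.21 and -0.10 for all genes. Of all genes measured, 7.73% were higher and 7.85% lower over the early step, and 12.8% and 16.8% over the whole course. Over the late step the shares were 7.75% and 7.11%. With bounds included, 17.7% of all genes were lower over the whole course. Etv4, an ETS transcription factor, gave 2457, 788 and 146 and was at -1.66 over the early step and -4.22 over the whole course. The feedback inhibitor Spry1 gave 989, 356 and 235 (2.82-fold and 4.67-fold lower), the MAP kinase phosphatase Dusp4 561, 78.6 and 50.4 (-2.85 and -3.62), and Ier3 1858, 449 and 158 (-2.07 and -3.70). Dusp6, a phosphatase of ERK, was at 0.09 over the early step, and was lower at day 21 (-2.26 against day 0 and -2.36 against day 3). Egr1 and Myc had the same order, with 0.23 and 0.26 over the early step, and -2.79 and -1.58 over the whole course. Over the late step they were at -3.02 and -1.84, Etv4 at -2.56 and Fos at -2.71. Dusp5, another phosphatase of ERK, was at least 3.11-fold lower at day 3 and at least 5.39-fold lower at day 21 than at day 0. Il17rd, an FGF receptor antagonist, was higher at both days (1.17 and 1.26), Ccnd1 was at 1.28 and 0.75, Etv1 at 0.85 and 0.68, and Fos at 1.41 and -1.30. Markers of dividing cells, all 6 above background on every array, had summed levels of 79.3, 42.7 and 6.10 at days 0, 3 and 21, and their part in these values was not tested.

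**Figure D5:**
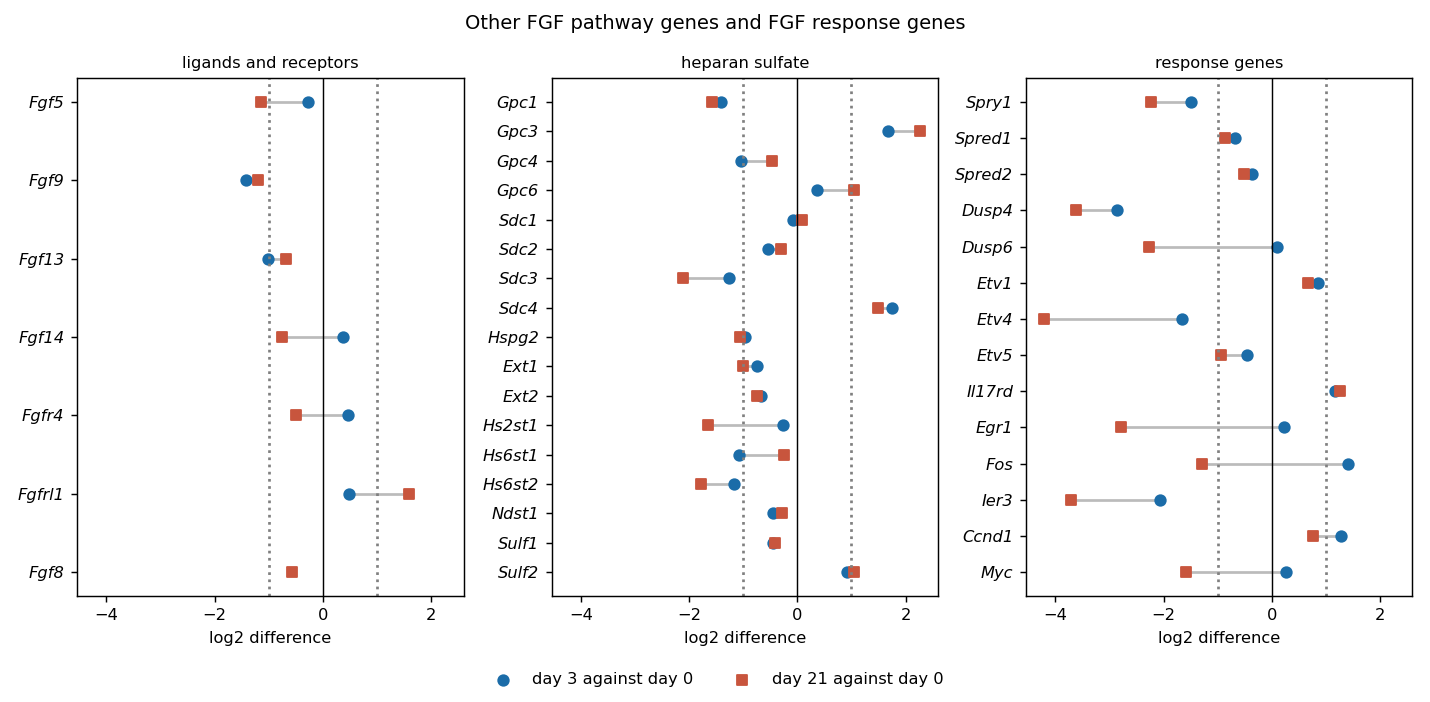
Log2 differences from day 0 for day 3 (circles) and day 21 (squares) of other FGF ligands and receptors, heparan sulfate genes and FGF response genes measured in at least 1 comparison, with dotted lines at 2-fold. In the right panel Etv4, Dusp4 and Ier3 lie furthest left at day 21, and in the middle panel Gpc3 and Sdc4 lie right of the 2-fold line at both days.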

How the data were processed

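Each scanner file holds spot intensity from Agilent Feature Extraction, version 10.10.1.1 per the file headers (the submitters' processing notes name 12.0), background-subtracted and detrended within the array, with no scaling from array to array. The series' deposited value table held the same intensity (largest relative difference 0).

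From these, log2 intensity minus the array's 75th percentile over 59305 non-control spots was taken. Spots with outlier flags were left out (115 to 200 an array) and none was saturated. Spots of a probe were averaged, and a probe was above background when at least 50% of its spots were. Probes were named by transcript accession through a RefSeq table of GRCm38.p6 (the array design names mm9), giving 26755 named probes. The brightest probe stands for a gene. For Etv1, Runx2 and Prg4 it was the only 1 of 2 probes measured. A gene above background on 1 of 2 arrays has a bound, set against the higher of its own value and the lowest detected value. Calls are at least 2-fold. Normexp used limma 3.58.1 on the median signal; other steps used Python 3.11.15. Genes and lists were chosen with earlier results of these data known. From each list, the 8 largest differences per comparison are named, plus ligands and receptors. The genes most like Fgf1 are not reported here.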

Additional observations from a re-analysis of the deposited data

How the results depend on the processing

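No paired analysis was possible because each group has 1 array, and leaving out an array was not possible for the same reason. The differences of the 10 genes were recomputed under 9 alternatives, of which 2 (the deposited value table and no filter on dim probes) left every value as it was. Of 166 values under the other 7, 162 kept their direction; the other 4 were Fgf7 (-0.47) and Fgf18 (-0.43) over the early step with spike-in scaling, and Fgf18 (-0.04, same comparison) and Fgfr1 (-0.04, the late step) with the dimmest probe of a gene. Counts below are genes past 2-fold, in the order alternative, then main value, and the cause of each shift was not tested unless stated. Spike-in scaling moved the median of all genes by -0.59 (early step), -0.28 (whole course) and 0.31 (late step), and the share of calls that were higher to 12.4%, 27.7% and 78.0%, against 49.6%, 43.2% and 52.1%. With it, the early step had 0 receptors and ligands higher (1) and 1 lower (0), 26 pathway genes lower (13) and 0 response genes higher (3); the whole course had 3 pathway (5) and 0 response genes (1) higher; the late step had 7 receptors and ligands (4) and 5 pathway genes (3) higher, and 1 pathway gene lower (3). When arrays were scaled to detected spots alone, 8 (13) and 9 (16) pathway genes were lower at day 3 and day 21 than at day 0, and 54.4% and 62.6% of all calls were higher over the whole course and the late step, against 43.2% and 52.1%. Median scaling gave 3 pathway genes (5), and quantile normalization 2 response genes (1), higher over the whole course. With no filter on dim probes, by construction more genes were compared: 2 receptors and ligands were higher (1) and 1 lower (0) over the early step, 1 was lower (0) over the whole course, and 8 (5) and 5 (3) pathway genes were higher at day 21 than at day 0 and day 3. A 1.5-fold rule, looser by construction, gave 3 receptors and ligands higher (1), 1 lower (0) and 20 pathway genes lower (13) over the early step, 3 response genes higher (1) over the whole course, and 7 receptors and ligands (4) and 7 pathway genes (3) higher and 8 pathway genes lower (3) over the late step. The following 3 alternatives were chosen after seeing the data. Leaving out Fgf1 and Fgf23 gave 0 receptors and ligands higher (1) over the early step. Normexp on the median signal, used because the planned mean signal is not among the columns used here, gave 0 receptors and ligands higher (1) and 6 pathway genes lower (13) over the early step, 7 pathway genes lower (16) and 0 response genes higher (1) over the whole course, and 2 receptors and ligands higher (4) and 1 pathway gene lower (3) over the late step. The dimmest probe, by construction without Fgf1, Fgfr3 and Fgf23, gave 0 of 5 receptors and ligands higher (1 of 8) over the early step, 2 of 5 (6 of 8) over the whole course, and 1 pathway gene lower (3) over the late step. Signal over background limits Fgf10, Fgf21 and Klb to bounds in their comparisons with day 0. The dim Fgfr3 probe has only bounds, in its comparisons with day 21.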
